A study of Mus musculus with 18 samples.

Results

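CTCF regions found in WT only are stretches of the mouse genome where a CTCF peak was called in wild-type embryonic stem cells and in neither of 2 knockout lines. They were found by joining peak rows with the same interval within each list, merging intervals of the 3 lists that shared at least 1 bp, and keeping merged regions with a WT interval and no knockout interval. This gave 9934 of 78072 merged regions (12.7%, 95% Wilson interval 12.5 to 13). Set against the 71075 intervals of the WT list, the same 9934 regions made up 14.0% (13.7 to 14.2), and this is the share to which the shares of chromosomes, genes and gene lists below should be compared. The regions were chosen by presence and absence in the peak lists, which follow the measured −log10 q, so their number and their weakness in the WT list are a description with no test.

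CTCF was immunoprecipitated from mouse embryonic stem cells of 3 genotypes and the bound DNA sequenced (ChIP-seq). TKO cells lack Tet1, Tet2 and Tet3, SKO cells lack those genes together with Dnmt1, Dnmt3a and Dnmt3b, and WT cells carry none of these deletions. Each genotype had 3 ChIP and 3 input samples, 18 samples in 6 groups, each from cells cultured with LIF on gelatin and irradiated mouse embryonic fibroblasts. The 3 ChIP replicates of a genotype were pooled into 1 peak list before deposit, so no spread between replicates exists, no p-value was computed, and each interval printed covers counting error only. Nothing in the labels says that more than 1 line stands for a genotype, so the genotype and the history of its line cannot be told apart. Molecular identifiers are not mentioned. Peak lists hold CTCF signal alone and offer no check of the deleted genes or of the cell type.

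CTCF is a zinc finger protein that binds a long, information-rich DNA motif and, together with the ring complex cohesin, anchors chromatin loops and insulates neighbouring domains. Methylation of CpG dinucleotides in its motif hinders binding at some sites, the imprinting control region beside H19 being the best-known case. DNMT enzymes methylate cytosine and TET enzymes oxidise methylcytosine, so that TKO cells lack the oxidation step and SKO cells lack both steps.

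The sequence under a WT-only region could be read where its summit, the base of highest pileup, fell in a promoter window, which spans 250 bases before to 50 bases after an annotated gene start (RefSeq, GRCm38, the same assembly as mm10). There were 145 such regions. The CTCF core was searched on both strands as the 12 letters CCNNNAGNNGGC, N standing for any base. Of the 145 windows 30 held it. Below are 7 WT-only examples followed by 3 of the strongest promoter regions found in all 3 lists, each written 5′ to 3′ on the strand of the match, with the 12 matching letters in capitals and 12 flanking bases on each side. They are shown because they let the core under a WT-only region be compared with the core under a region kept in both knockouts.
Nck2, WT only: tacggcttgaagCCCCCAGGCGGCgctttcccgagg
Npnt, WT only: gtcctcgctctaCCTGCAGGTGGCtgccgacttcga
Gm36826, WT only: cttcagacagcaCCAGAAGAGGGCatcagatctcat
Gm41920, WT only: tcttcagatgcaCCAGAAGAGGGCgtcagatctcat
Gm29724, WT only: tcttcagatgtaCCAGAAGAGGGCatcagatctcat
Gm46412, WT only: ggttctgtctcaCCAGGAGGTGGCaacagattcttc
Defb28, WT only: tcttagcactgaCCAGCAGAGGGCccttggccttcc
Adprhl2, all 3 lists: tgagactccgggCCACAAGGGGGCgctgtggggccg
Med4, all 3 lists: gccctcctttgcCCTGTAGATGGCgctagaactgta
Mrpl34, all 3 lists: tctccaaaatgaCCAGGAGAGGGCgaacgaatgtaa

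The capitals of the Nck2 match (chr1:43445619-43445630, plus strand) hold a CpG, the dinucleotide that DNMT enzymes methylate, and those of the other 9 hold none. A CpG across the end of the match is not counted there. At Nck2, Gm41920, Adprhl2, Med4 and Mrpl34 the last capital C is followed by a g, so it is the cytosine of such a CpG. Nck2 encodes an adaptor that links receptor tyrosine kinases to actin, and its WT-only region had a fold of 8.29 and a pileup of 27 fragments. Npnt (chr3:132949991-132950002, minus strand), the gene of the extracellular matrix protein nephronectin, had a fold of 9.07 and a pileup of 24. At Gm46412 (chr13:46724571-46724582, plus strand) and Defb28 (chr2:152518164-152518175, plus strand), the gene of a beta-defensin, the match lay 4 and 3 bases from the summit. Folds there were 7.38 and 6.53. The match lay farther from the summit in the other WT-only examples. It was 95 bases away at Nck2, 81 at Npnt, 63 at Gm29724, 46 at Gm41920 and 18 at Gm36826. The promoter regions found in all 3 lists were chosen for strength and stood far higher: Adprhl2 (chr4:126321748-126321759, minus strand) had a WT fold of 92.2, Med4 (chr14:73509897-73509908, plus strand) 44.0 and Mrpl34 (chr8:71464789-71464800, minus strand) 27.3. All of these examples were chosen because they match the pattern, so their likeness in it says nothing about a difference between the classes.

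The cores at Gm36826 (chr17:85157951-85157962, plus strand), Gm41920 (chr1:93539731-93539742, plus strand) and Gm29724 (chr9:31003816-31003827, minus strand) are identical in their 12 letters and nearly so in their flanks. These 12 letters were the most frequent match to the core over all 32851 promoter windows, 82 of 3034 matches, and were followed by another sequence with 37. They occurred in 5 of the 145 WT-only windows (3.45%, 1.48 to 7.82), against 13 of the 1319 windows of regions found in all 3 lists (0.986%, 0.577 to 1.68). Across all promoter windows they occurred in 81 (0.247%, 0.198 to 0.306). The intervals of the WT-only and the all-lists share overlap from 1.48 to 1.68. Such an overlap is no test of a difference, and the windows were not matched for strength. The counts therefore do not settle a difference. As background, B2 elements, a family of rodent retrotransposons, are known to have spread CTCF motifs through the mouse genome, and whether these 5 windows hold one was not tested, since no repeat annotation was used.

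Most WT-only promoter windows did not hold the core at all, and 2 of the strongest of this kind are given next, as the 250 bases before the gene start with each CpG in capitals. Atf7ip encodes a partner of the histone methyltransferase SETDB1 that silences endogenous retroviruses, and Arl4a a small GTPase of the ARF family. Atf7ip is printed from the plus strand (chr6:136518601-136518850) and Arl4a from the minus strand (chr12:40037377-40037626). They are shown because both are dense in CpG, 20 in the Atf7ip stretch and 22 in the Arl4a stretch, while the core pattern is not in either window.
Atf7ip: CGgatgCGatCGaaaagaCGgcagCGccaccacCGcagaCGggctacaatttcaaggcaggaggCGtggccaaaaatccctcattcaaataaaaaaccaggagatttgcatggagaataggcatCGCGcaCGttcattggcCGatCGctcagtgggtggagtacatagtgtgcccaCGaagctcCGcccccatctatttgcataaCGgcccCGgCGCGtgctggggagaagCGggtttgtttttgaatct
Arl4a: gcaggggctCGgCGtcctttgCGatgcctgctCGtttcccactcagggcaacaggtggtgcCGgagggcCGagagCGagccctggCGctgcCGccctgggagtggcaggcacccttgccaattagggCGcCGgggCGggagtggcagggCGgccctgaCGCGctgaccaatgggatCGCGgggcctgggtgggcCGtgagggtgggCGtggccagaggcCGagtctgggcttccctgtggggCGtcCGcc

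Atf7ip had a fold of 10.7 with a pileup of 38, and Arl4a a fold of 11.3 with a pileup of 30. Their summits lay 190 and 186 bases before the gene start, inside the bases printed. Counted over all 145 WT-only windows, the median number of CpG per 300 bases was 20 (quartiles 13 and 26), against 18 (10 and 25) for regions found in all 3 lists, and 7 (3 and 20) over all promoter windows. Windows with at least 15 CpG made up 69.7% of the WT-only windows (61.7 to 76.6) and 61.3% of the windows of all 3 lists (58.6 to 63.9). WT-only promoters were thus mostly CpG-rich, as were promoters bound in every genotype.

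The core pattern was present in 20.7% of WT-only windows (14.9 to 28.0), against 39.2% of windows of regions found in all 3 lists (517 of 1319, 36.6 to 41.9). Windows found in WT and TKO held it in 20.9% and windows found in WT and SKO in 22.4%, close to the WT-only share. The background over all promoter windows was 8.61%. It was not matched for base composition. The median share of G and C was 52.7% over all promoter windows and 60.3% in WT-only windows. A stricter pattern, CCANNAGGNGGC, was in 2 of the 145 WT-only windows (1.38%), in 125 windows of all 3 lists (9.48%) and in 0.916% of all promoter windows. A CpG stood inside the matched letters in 13 of 30 WT-only windows and in 225 of 517 windows of all 3 lists. These counts leave out a CpG formed by the last matched letter and the base after it. A match says only that these letters are present, and the absence of a match says nothing about what bound there.

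Read by strength, the classes came closer. In the 2 weakest deciles of the WT list by −log10 q, the pattern was in 19 of 117 WT-only windows (16.2%, 10.6 to 24.0), against 19 of 87 windows of all 3 lists (21.8%, 14.5 to 31.6). In deciles 3 to 5 it was in 11 of 27 WT-only windows (40.7%, 24.5 to 59.3), against 79 of 276 windows of all 3 lists (28.6%, 23.6 to 34.2). The intervals overlap in both bands and the order of the classes turns round between them. Each band pools deciles, and strength was not equal within it. Of the 27 WT-only windows in deciles 3 to 5, 17 were in decile 3 and 2 in decile 5. Of the 276 windows of all 3 lists, 64 and 120 were. These counts therefore do not settle whether the classes differ at equal strength. With a −log10 q of at least 5 in WT, 20 of 63 WT-only windows held the pattern (31.7%, 21.6 to 44.0), against 510 of 1297 windows of all 3 lists (39.3%, 36.7 to 42.0).

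The distance from match to summit was not matched for strength. Its median was 59.5 bases in WT-only windows, 38.5 in windows of WT and TKO, 108 in windows of WT and SKO and 24.5 in windows of all 3 lists. The match was within 50 bases in 13 of 30 WT-only windows, 15 of 24 of WT and TKO, 2 of 13 of WT and SKO and 378 of 517 of all 3 lists. The WT-only windows stood between the classes held in 1 knockout.

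WT-only regions were weak, narrow peaks in the list that held them. Their median fold enrichment, which is the summit pileup plus 1 over the local background plus 1, was 4.86 (quartiles 3.99 and 5.96), against 12.7 in WT for regions found in all 3 lists. Regions found in WT and TKO had a median WT fold of 5.80, and regions found in WT and SKO one of 5.86. The pileup behind the WT-only folds was 15 fragments in the median (quartiles 12 and 19), against 56 for regions of all 3 lists and 20 for each class with 1 knockout. The local background was 2.1 against 3.44 fragments, and 35.7% of WT-only regions (3544) sat at the lowest background in the WT list, 1.76 fragments, where 9.13% of the regions of all 3 lists did. WT-only regions were 243 bp wide in the median, against 399 bp for regions of all 3 lists, and 45 of them (0.453%) held more than 1 summit, against 3.44%.

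**Figure D1:**
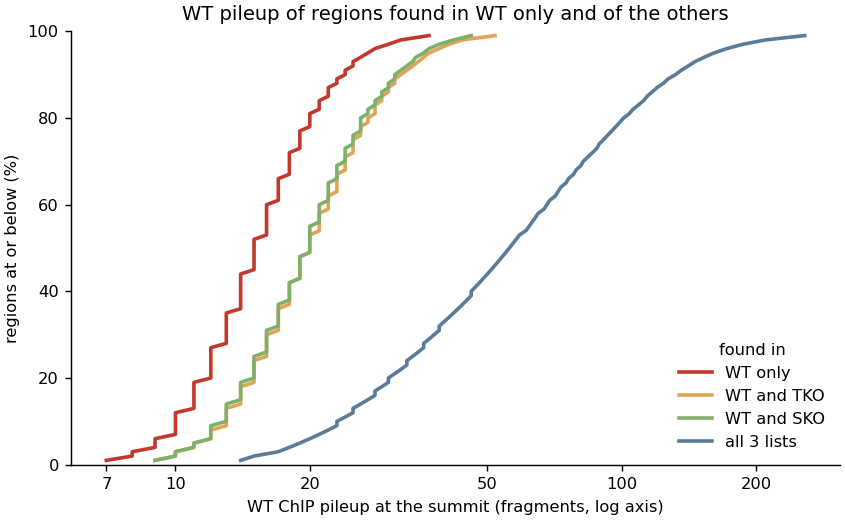
Cumulative distribution of the WT ChIP pileup at the summit (fragments, log axis) for WT regions of the 4 classes; each line gives the percent of regions at or below a pileup. The WT-only line lies left of the others, with a median of 15 fragments against 20 for each class with 1 knockout and 56 for regions of all 3 lists.

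The share of WT regions that were WT only fell steadily with strength. When the WT list was divided into 10 deciles by −log10 q, 60.3% of the weakest decile (59.2 to 61.4) was WT only, then 42.4%, 23.9%, 10.2% and 2.62% of the next 4, and 0.352% of the sixth. The first 3 deciles held 8996 of the 9934 WT-only regions (90.6%). Above the median −log10 q of the WT list lay 28 of them, out of 35538 WT regions. None of the 14215 WT regions in deciles 9 and 10 was WT only, which allows a share of up to 0.0211%. This limit is 3 counts over the 14215 regions and not a Wilson limit.

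**Figure D2:**
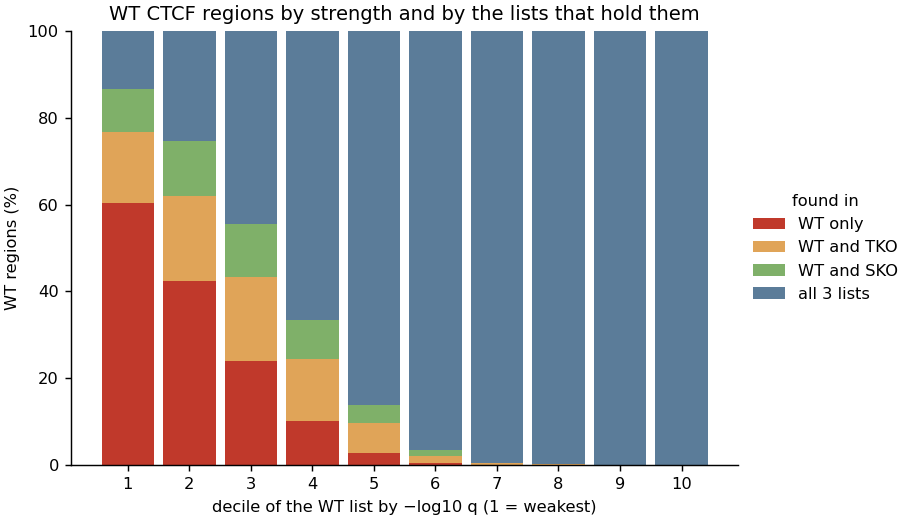
Percent of WT regions in each class (vertical axis) for 10 deciles of the WT list by −log10 q, from weakest (1) to strongest (10). The WT-only part takes 60.3% of the weakest decile and 2.62% of the fifth, and the part found in all 3 lists takes almost the whole of the upper deciles.

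The edge of the rule was clean. The WT-only regions nearest to a knockout interval lay 7 bp from it (chr8:44935153-44935414, fold 2.86), 10 bp (chr7:19957134-19957414, fold 4.49) and 15 bp (chr1:61497622-61497843, fold 2.89). Just outside the rule were WT intervals that shared 12 bp with a knockout interval (chr7:90527448-90527736, fold 3.43), 14 bp (chr16:27423652-27423971, fold 3.63) and 19 bp (chr9:108226935-108227239, fold 3.00). An overlap of at most 50 bp kept 9 WT intervals out of the class, and an overlap of at most 100 bp kept out 52. A TKO interval lay less than 500 bp away for 280 WT-only regions (2.82%), and a SKO interval for 263 (2.65%). Within 10 kb, 49.1% of WT-only regions had a TKO interval and 47.2% a SKO interval.

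The lists differ in depth or enrichment, and this bears on what the absence of a call means. Over 51300 regions with 1 interval in each list, the median ratio of TKO to WT was 0.891 for pileup and 1.02 for local background. For SKO to WT it was 0.733 for pileup and 0.739 for background. The WT pileup and background of each WT-only region were multiplied by these ratios and set against the smallest pileup that would have reached the lowest −log10 p in the knockout list, 3.32 in TKO and 3.34 in SKO. The median scaled pileup was 13.4 against a threshold of 8 fragments in TKO, and 11 against 7 in SKO. The scaled pileup reached the threshold in TKO for 92.1% of WT-only regions (9153), in SKO for 89.9% (8931) and in both for 89.0% (8845). At least 2 times the threshold was reached in both lists by 1294 regions (13%). These figures hold no counting error, they leave out the length a call also needs, and the WT values come from regions chosen because only WT was called, so they give the distance to the threshold and not a number of binding sites lost.

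The 18 regions named for their fold or their −log10 q were picked for high WT values. Each had a scaled pileup at least 2 times the threshold in both knockouts. This follows largely from that choice and does not measure a loss of binding. The highest fold, 19 with a pileup of 54, was on chromosome 17 between genes (chr17:80860541-80860947), 83.9 kb from Tmem178. The WT pileup of this region, scaled, was 48.1 fragments for TKO and 39.6 for SKO, against thresholds of 8 and 7. The next, with a fold of 17.6 and a pileup of 60, lay upstream of H19, a maternally expressed non-coding RNA (chr7:142581631-142582184). Its scaled pileup was 53.5 in TKO and 44.0 in SKO, against thresholds of 9 and 8, and another WT region that is not WT only lay 0.675 kb away. A further intergenic region (chr13:79570131-79570465, fold 14.7) had no protein-coding gene within 100 kb; Arrdc3, an arrestin-domain adaptor gene, was 1313 kb away. The highest pileup of the named regions was 75, at chr16:95189184-95189500 (fold 13.8), 68.2 kb from Kcnj15, the gene of an inward-rectifier potassium channel, and inside the predicted gene Gm31641.

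Of the 12 regions of highest fold, 6 lay inside protein-coding genes. A region inside Grik1, a kainate receptor subunit gene, had a fold of 14 (chr16:87922956-87923262). One inside Adgrl3, the gene of the adhesion receptor latrophilin 3, had 13.4 (chr5:81384312-81384632). One inside Dpp6, whose product joins Kv4 potassium channels, had 13.1 (chr5:27122407-27122742). Folds of 13.1 were also found inside Oxr1, an oxidation resistance gene (chr15:41574709-41574936), and 42.1 kb from Adamts6, a secreted metalloprotease gene (chr13:104538690-104538987). Regions with a fold of 12.7 lay inside Sntg2, a syntrophin gene (chr12:30300865-30301122), inside Dgkg, a diacylglycerol kinase gene (chr16:22586447-22586912), and 1955 kb from Olfm4 (chr14:81977824-81978217). All but those beside H19 and Kcnj15 among these 12 regions had a local background below 2 fragments. The 6 regions named for −log10 q had higher backgrounds, from 3.17 to 5.29 fragments, and folds from 9.23 to 11.7. They lay inside Btbd11 (pileup 51), Wwc2 (56) and Rev3l (57), the gene of the catalytic subunit of DNA polymerase zeta, and outside genes near Nlrp12 (48), Ttc29 (47) and Gm46427 (48).

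WT-only regions lay near gene ends less often than regions of equal strength found in all 3 lists, and regions missing from 1 knockout list leaned the same way. Within 1 kb of either end of a protein-coding gene lay 7.30% of WT-only summits (725, 6.80 to 7.83), against 8.95% of summits of regions found in all 3 lists (8.71 to 9.20). When the regions of all 3 lists were averaged with the decile weights of the WT-only regions, their share was 13.6%. This is what equal strength means here. It evens out the deciles of WT −log10 q, and strength within a decile, pileup and background were not matched. Unweighted, the classes held in 1 knockout were near the WT-only share, at 7.56% for WT and TKO (6.90 to 8.28) and 7.52% for WT and SKO (6.69 to 8.44). With the same weights they stood between, at 9.05% and 9.60%, so a low share near gene ends is not particular to WT-only regions. Against regions of all 3 lists the WT-only share was lower in each of the first 5 deciles, at 9.96% against 18.3% in the weakest, 5.51% against 11.1% in decile 2, 5.07% against 9.00% in decile 3, 5.39% against 8.41% in decile 4 and 2.69% against 7.07% in decile 5. The intervals of the classes were apart in deciles 1 to 5. Regions in promoter windows showed the same order, 1.46% of WT-only regions (1.24 to 1.71) against 2.54% of regions in all 3 lists and 3.08% at equal strength. Unweighted, WT and TKO regions had 2.05% (1.71 to 2.46) and WT and SKO regions 1.65% (1.28 to 2.12).

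Inside protein-coding genes the classes were close, with 49.5% of WT-only summits (48.6 to 50.5) against 48.7% of summits of all 3 lists and 51.5% at equal strength. Genes over 500 kb long held 4.65% of WT-only summits (4.25 to 5.08), against 3.77% and 4.0%. They held 4.12% of WT and TKO summits (3.63 to 4.67) and 4.40% of WT and SKO summits (3.77 to 5.13). Over 100 kb from any protein-coding gene lay 13.5% of WT-only summits (12.8 to 14.2), against 8.77% of all-lists summits and 11.4% at equal strength. Summits of WT and SKO regions did so as often, at 13.4% (12.3 to 14.6), and those of WT and TKO regions in 11.5% (10.7 to 12.3). The median distance to a gene end was 20.5 kb for WT-only regions and 14.5 kb for regions of all 3 lists.

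WT-only regions also had fewer close neighbours. Another WT region lay within 1 kb of 7.85% of them (7.34 to 8.40), against 11.1% of regions of all 3 lists and 12.7% at equal strength. Within 10 kb the shares were 53.4% (52.5 to 54.4) against 63.0% and 59.6%, and the WT-only share was the lower one in each of the first 5 deciles. Within 50 kb they were 89.6% against 94.1% and 90.4%. Within 10 kb the classes held in 1 knockout stood between, with 56.7% for WT and TKO and 54.8% (53.1 to 56.4) for WT and SKO. The latter interval overlaps that of the WT-only regions. Within 50 kb WT and SKO regions stood below the WT-only regions, at 88.5%, and WT and TKO regions at 91.6%. A low share with close neighbours is thus not particular to WT-only regions. The median distance to the next WT region was 8.86 kb for WT-only regions and 6.37 kb for regions of all 3 lists.

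**Figure D3:**
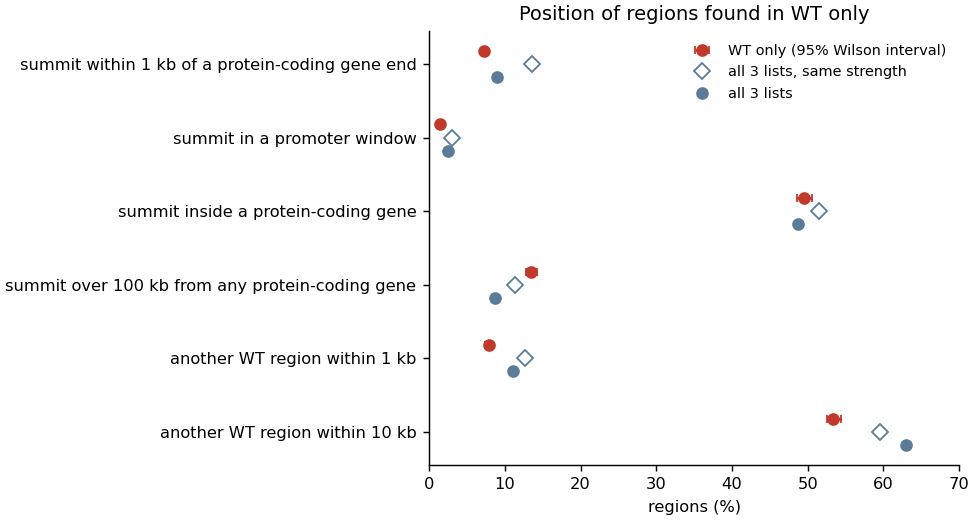
Percent of regions (horizontal axis) with each property of position. WT-only regions are red, with 95% Wilson intervals, and all regions of all 3 lists are blue. Open diamonds are regions of all 3 lists averaged with the decile weights of the WT-only regions, called equal strength. WT-only regions stand at 7.30% against 13.6% at equal strength within 1 kb of a gene end, and at 53.4% against 59.6% for another WT region within 10 kb.

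By chromosome, the far part of chromosome 14 stood apart. Of the 1600 WT regions on chromosome 14 from 55 Mb onward, 325 were WT only (20.3%, 18.4 to 22.4), where 222 would be at the average share of their deciles. Below 55 Mb it was 200 of 1431 (14.0%, 12.3 to 15.9), with 201 at the decile average, and on the other autosomes 13.7% (13.5 to 14.0). In the far part the WT-only share was higher in each of the first 5 deciles, at 68.8% against 60.1% elsewhere in the weakest, 56.4% against 42.1% in decile 2 and 43.7% against 23.4% in decile 3. It was 23.4% against 9.86% in decile 4 and 10.6% against 2.44% in decile 5.

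The local background differed in the same part of the chromosome. At regions with an interval in every list, the median background ratio of TKO to WT was 0.794 on chromosome 14 from 55 Mb, against 1.04 below 55 Mb and 1.02 on the other autosomes. SKO to WT was 0.575 in the far part, against 0.687 and 0.739. SKO to TKO was 0.740 there, 0.705 below 55 Mb and 0.740 on the other autosomes. In the 5 Mb segments of the far part SKO to TKO ran from 0.670 to 0.925. The median pileup ratio of TKO to WT was 0.685 in the far part, 0.917 below 55 Mb and 0.895 on the other autosomes. In 5 Mb steps, the TKO to WT background ratio ran from 1.00 to 1.05 in the 11 segments below 55 Mb and from 0.704 to 0.939 in the 14 segments above it. In 13 of those 14 the WT-only count was above the decile average, with shares from 13.8% to 32.8%. The segment from 115 Mb had the lowest background ratio, 0.704, over 63 regions, and 14 WT-only regions with 14.5 at the decile average. The segment from 85 Mb had the highest, 0.939, over only 27 regions. Its share was also the highest (32.8%, 22.1 to 45.6), with 19 WT-only regions and 11.2 at the decile average. The TKO to WT pileup ratios of these segments were 0.655 and 0.736. These segments were picked as extremes and do not show how ratio and share go together over all 14. The ratios of TKO to WT and of SKO to WT share the WT list, and a ratio alone does not say which list changed. The boundary was chosen after these ratios were seen. Whether the lines differ in the copy number of this part of the chromosome, in WT or in both knockouts, was not tested.

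**Figure D4:**
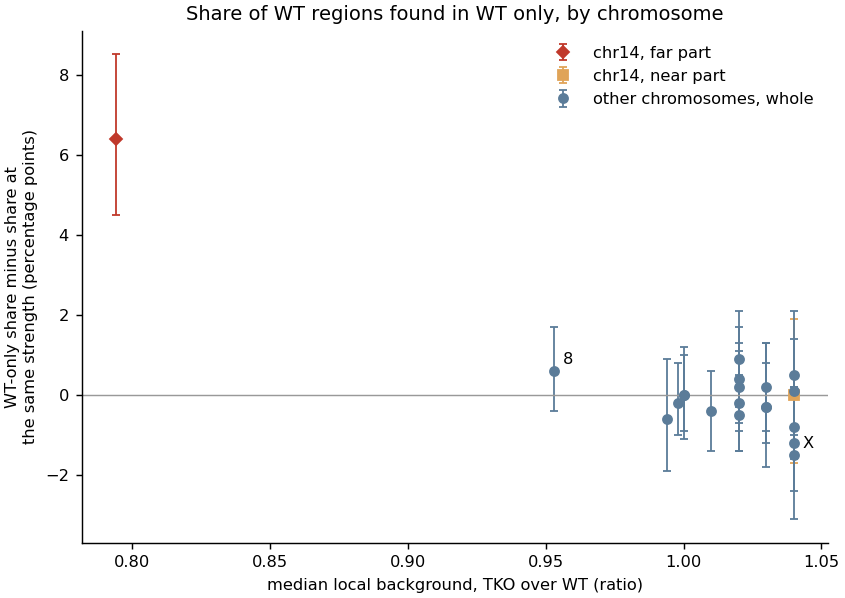
Percentage of WT regions found in WT only minus the percentage at the average share of their strength deciles (vertical axis, percentage points, bars from the 95% Wilson interval of the share), against the median TKO to WT ratio of local background (horizontal axis), for whole chromosomes other than Y and for chromosome 14 below 55 Mb (near part) and from 55 Mb (far part). Chromosome 14 from 55 Mb lies apart at a ratio of 0.794 and a share of 20.3%, where the decile average is 13.9%.

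The X chromosome also had a high raw share, 336 of 1953 WT regions (17.2%, 15.6 to 18.9), but its regions were weak and 365 would be WT only at the average of their deciles. Chromosome 8, with the next lowest TKO to WT background ratio of 0.953, had 521 WT-only regions against 497 at the decile average. The remaining autosomes had shares from 12.5% on chromosome 5 to 15.5% on chromosome 3. On Y 8 of 36 WT regions were WT only.

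WT-only regions were spread over many genes. Of 11919 protein-coding genes with a WT summit inside, 3668 held a WT-only one, 270 held 3 or more, and in 646 every WT region was WT only. Of those 646, 48 had at least 2 WT regions. The genes holding most were long: Asic2, an acid-sensing ion channel gene of 1088 kb, held 10 among 33 WT regions (30.3%, 17.4 to 47.3), and Nav2, which encodes a neuron navigator protein, held 10 of 34 (29.4%, 16.8 to 46.2). These genes were named because they hold the most WT-only regions, so their counts are a description and no sign of an excess. The average of their deciles would give 5.06 in Asic2 and 5.58 in Nav2. Rere, the gene of a nuclear receptor coregulator, held 9 of 22 (40.9%) with 6.27 at the decile average. Cdh13, the gene of a lipid-anchored cadherin, held 8 of 47 (17.0%). Fhit, which spans a common fragile site, held 7 of 16, Wdr70 7 of 17, Atrnl1 7 of 23 and Aak1, a kinase gene of clathrin-mediated endocytosis, 6 of 9.

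Aak1 also had the highest share among the 841 genes with at least 8 WT regions (66.7%, 35.4 to 87.9), and the other 3 of its WT regions were found in all 3 lists. Itgbl1 on the far part of chromosome 14 held 5 of 8. Sipa1l1, a Rap GTPase activator gene of the synapse, held 5 of 9, and the zinc finger gene Zfp609 also held 5 of 9. These genes were picked out of the 841 by rank, their intervals are wide, and no test stands behind them. The median fold of the WT-only regions inside these 4 genes ran from 3.99 in Sipa1l1 to 5.86 in Itgbl1, near the 4.86 of all WT-only regions.

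Runs of neighbouring WT regions that were all WT only held at most 5 regions. No expected number was computed for runs, so the counts are a description and do not say whether WT-only regions cluster. Of the 9934 regions 6992 (70.4%) had no WT-only region as the next WT region on either side, 1118 runs held 2, 191 held 3, 27 held 4 and 5 held 5. A run of 5 over 545 kb stood near Tbl1xr1, the gene of a corepressor subunit (chr3:21471234-22015822), with pileups of 23, 17, 12, 31 and 13. Another run of 5 lay over the Cyp3a57, Cyp3a41b and Cyp3a44 genes of steroid and drug oxidation (chr5:145336683-145797741), with pileups of 14, 18, 14, 16 and 12. The other runs named lay near Got2 (469 kb) and near Celf4 (639 kb), with median folds of 5.08 and 5.14. All these runs hold ordinary WT-only peaks, within the range of folds from 3.21 to 8.42.

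WT-only regions were counted at the genes of the deleted enzymes, with 10 kb on either side. The Tet genes are deleted in both knockouts and the Dnmt genes in SKO alone. The rule needs absence from both knockout lists, so a region missing only through a deletion in SKO could not be WT only. The counts of the Tet and the Dnmt genes are therefore no comparison of like with like. Tet1 had 2 of 9 WT regions WT only (folds 4.06 and 5.37), Tet2 2 of 5 (4.07 and 6.59) and Tet3 1 of 2 (3.62). Together the 3 Tet genes had 5 of 16 (31.2%, 14.2 to 55.6), against 14.0% of all WT regions and 3.29 at the average of their deciles. The methyltransferase genes, deleted in SKO alone, had 0 of 6 at Dnmt1, 0 of 7 at Dnmt3a and 0 of 4 at Dnmt3b, 0 of 17 in all (up to 18.4%), with 2.04 at the decile average. The interval of each group of genes includes the share at its decile average, and that of the Tet genes starts just above the share of all WT regions. Ctcf itself had 2 of 4 (3.07 and 3.37), and H19 1 of 2. Where the deletions lie is not given in the sources used here, so a missing call at a Tet gene and a missing stretch of DNA cannot be told apart.

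Gene lists were read with 10 kb on either side of each gene. Over 17 lists, the WT-only share ran from 3.53% to 19.4%, and the average share of the same strength deciles lay inside the 95% interval of every list. Imprinted genes had 24 of 168 WT regions WT only (14.3%), with 17.6 at the decile average. Besides H19 they included Zfp64 with 5 of 16 (folds 3.84 to 8.46), and Nnat with the gene Blcap that surrounds it, which share 2 of 3 (3.36 and 7.53). Naive pluripotency genes had 15 of 104 (14.4%), with 14.9 at the decile average. Among them Lin28a, which blocks the maturation of let-7 microRNAs, had 2 of 3 (3.99 and 9.47), Dppa4 2 of 3 (5.05 and 6.71) and the TGF-beta family ligand gene Gdf3 2 of 5 (2.68 and 7.40).

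Lists tied to DNA methylation, silencing and chromosome folding also lay near their averages. Germline genes, many of which DNA methylation represses, had 15 of 79 (19%, 11.9 to 29.0), with 15.9 at the decile average, and these were led by the testis bromodomain gene Brdt (3 of 5, folds 3.93 to 7.71), the meiotic gene Tex11 (3 of 5, 2.90 to 7.98) and Tex14 (3 of 17, 2.68 to 8.71). Genes of endogenous retrovirus silencers had 14 of 92 (15.2%, 9.29 to 23.9), with 12.6 at the decile average, among them Atrx, Sumo2 and Kdm1a with 2 each. Chromosome architecture genes had 14 of 92 (15.2%), with 15.9 at the decile average. Nipbl, the cohesin loader gene, had 3 of 9 (2.81 to 9.15) and Stag2, a cohesin subunit gene, 2 of 2 (4.49 and 6.17). NuRD subunit genes had 10 of 94 (10.6%, 5.88 to 18.5), with 14.1 at the decile average, and DNA methylation enzyme and reader genes 7 of 66 (10.6%), with 8.59.

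Neural and multigene lists spread around the same average. Channel genes had 54 of 292 (18.5%, 14.5 to 23.3), with 42.4 at the decile average, and Asic2 alone gave 11 of them with the 10 kb on either side. Cacna1c, an L-type calcium channel gene, had 5 of 20. Synaptic and glutamate receptor genes had 58 of 418 (13.9%), axon guidance genes 40 of 298 (13.4%) and cadherins and catenins 31 of 216 (14.4%). Olfactory and vomeronasal receptor genes had 53 of 273 (19.4%, 15.2 to 24.5), the highest share, but these regions were weak and 48.1 would be WT only at the decile average. Clustered protocadherin genes, where CTCF sites at alternative promoters take part in promoter choice, had the lowest, 3 of 85 (3.53%, 1.21 to 9.87), with 5.95 at the decile average. Zinc finger genes had 141 of 888 (15.9%), early lineage genes 10 of 78 (12.8%) and Hox genes 3 of 34 (8.82%). Feeder fibroblast markers, listed because feeder chromatin may be in the lysates, had 5 of 61 (8.20%, 3.55 to 17.8).

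**Figure D5:**
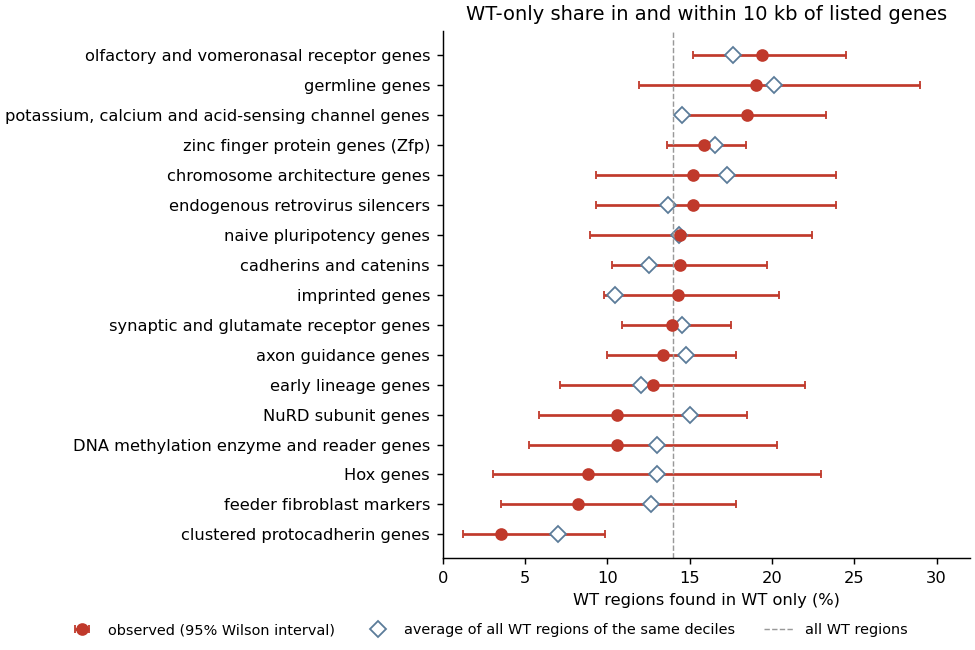
Percent of WT regions found in WT only (horizontal axis) in and within 10 kb of the genes of 17 lists (red, with 95% Wilson intervals), beside the average share of all WT regions of the same strength deciles (open diamonds); the dashed line marks the 14.0% of all WT regions. Every diamond lies within the interval of its list, from clustered protocadherins at 3.53% to olfactory and vomeronasal receptors at 19.4%.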

How the data were processed

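The 3 deposited peak lists, 1 per genotype, were called by the authors on 3 pooled ChIP replicates against input, per the labels. Tools listed in the submitters' processing notes include MACS2 2.1.2 and Bowtie2 2.3.4, with the mm10 build and no commands. Each deposited peak carries the authors' fold enrichment (a ratio), −log10 p, −log10 q and score. Pileup and background were solved from the deposited fold and −log10 p, with a pseudocount of 1; the pileup came out whole, with a relative error of −log10 p below 1e-04, for all but 1 TKO, 1 SKO and 0 WT intervals. Rows of equal interval were joined to the strongest summit: 62238 TKO, 59372 SKO and 71075 WT intervals from 64121, 61027 and 73125 rows. bedtools 2.31.1 found the same intervals, 9934 of 9934. In all, 19.0% of WT intervals met no TKO interval and 21.9% no SKO interval. Sequencing depth of single samples is unknown, since the lists give none.

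Gene positions and promoter windows came from RefSeq (GRCm38.p6; 49997 genes). The regions, gene lists and tests were chosen with earlier results of these data known. Named were the 12 regions of highest fold, 6 more by −log10 q, the 8 genes holding most, 4 genes of highest share with at least 8 WT regions, 4 longest runs, up to 3 genes per list, H19 and the deleted enzymes. Promoter examples, Ctcf and the chromosome 14 boundary were chosen after values were seen. Scripts were tested on simulated data (Python 3.11.15, numpy 2.4.6, pandas 2.3.3, scipy 1.17.1). Intervals are 95% Wilson.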

Additional observations from a re-analysis of the deposited data

How the results depend on the processing

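The share of WT regions found in WT only, 14.0%, was 14.5% when a shared region had to be covered by 50%, 14.6% when summits had to lie within 100 bp and 13.5% within 500 bp. With a floor on −log10 q it was 10.0% (WT, 5), 3.79% (WT, 10) and 12.5% (5 in every list); on autosomes it was 13.9%, and without chromosome 14 from 55 Mb, an alternative chosen after seeing the data, 13.8%. The share near protein-coding gene ends (1 kb), 7.30%, became 13% with 2.5 kb, 11.6% with genes of every kind and 5.33% with the floor of 5; regions of all 3 lists at equal strength had 21.9%, 18.6% and 10.9%, so the order held in these 3. The share with another WT region within 10 kb, 53.4%, became 19.9% with 2.5 kb and 89.6% with 50 kb, against 25.6% and 90.4%. The share over the gene lists together, 14.9%, was 10.6% with the floor of 5. The share of WT-only promoter windows with the core was 20.7%, 1.38% with the stricter pattern and 31.7% with the floor of 5, both added after seeing the data; windows of all 3 lists had 39.2%, 9.48% and 39.3%. Of 51 list alternatives, 43 moved by less than the counting interval and 8 by more.

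No paired analysis was possible because the replicates were pooled before deposit, which also leaves no replicate to leave out. The search for the motif around every summit was not run, since it needs the genome sequence.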

Other observations

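A tally in windows of 2 Mb, listed after their values were seen, gave places where WT-only regions were above the average of their strength deciles. The windows below were picked for this out of all windows tallied, so their counts are a description and no sign of an excess. On chromosome 14 from 66 to 68 Mb, over Ebf2, Dpysl2 and Dock5, 19 of 92 WT regions were WT only, with 9.08 at the decile average and a TKO to WT background ratio of 0.760. On chromosome 14 from 58 to 60 Mb, over Rcbtb1, Phf11b and Setdb2, it was 19 of 61, with 9.80 at the decile average and a background ratio of 0.808. On chromosome 17 from 62 to 64 Mb, over Efna5, an ephrin ligand gene of axon guidance, the kinase gene Fer and Fbxl17, it was 15 of 41, with 5.49 at the decile average and a background ratio of 0.921. On chromosome 15 from 8 to 10 Mb, over Wdr70, Nipbl and Cplane1, it was 22 of 75, with 13.6 at the decile average and a background ratio of 1.02. On chromosome 9 from 102 to 104 Mb, over the ephrin receptor gene Ephb1, it was 20 of 80, with 12.7 at the decile average and a background ratio of 1.06. The other autosomes together had a background ratio of 1.02.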
